A study of Mus musculus with 6 samples.

Results

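The 10 genes described here lie close together on distal mouse chromosome 7, around Ccnd1 and the neighbouring ligand genes Fgf15, Fgf4 and Fgf3. The others are Shank2, Cttn, Ppfia1, Fadd, Ano1 and Tpcn2. They were taken by symbol, 10 of the 24063 gene symbols in the files, and all 10 passed the filter on low counts. They were selected on their position, with the CPM values of the tumor against normal contrast already known, so their differences in that contrast are given as descriptions, with standard errors and without p-values. Fgf15, Fgf4 and Fgf3 passed the filter only through the tumor samples.

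RNA-seq libraries came from penile tumors of 3 SA mice and, as 3 libraries, from normal penile epithelium of WT mice, all males aged 5 months. SA mice carried the PB-Cre transgene with both alleles of Smad4 and of Apc flanked by loxP sites (PB-Cre+ Smad4L/L ApcL/L), and their tumors arose without carcinogen. The PB-Cre transgene used in the study, PB-Cre4, is driven by an androgen-responsive promoter, so deletion was directed to androgen receptor-positive epithelium and not to the other cells of a tumor. WT mice were C57BL/6. The strain background of the SA colony was not given in the sources used here, so genotype and strain cannot be told apart. Whole-transcript counts of the deleted genes do not measure the deletion, because most exons remain and non-epithelial cells keep both genes. In them, SA tumors had 214.5 ± 33.4 CPM of Apc against 79.6 ± 15.1 in the WT group, and 39.6 ± 5.61 CPM of Smad4 against 67.8 ± 5.92 (SD, n = 3).

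CPM here is the usual count scaled for library depth, after edgeR's TMM normalization. The libraries held 23828283 to 110509147 counts in the gene rows, with the deepest library from SA tumor 3. A count of 3, taken as the smallest level that a library can show, was between 0.0244 and 0.137 CPM, which covers counting error only. These are bulk levels over several cell types, so fewer cells of a type and less RNA per cell cannot be told apart. The 5 keratinocyte markers summed to 20140 to 25450 CPM in SA tumors and 57900 to 65510 CPM in WT penises. Most of this difference lay in Krt1, at 6579 ± 1782 and 20310 ± 1111 CPM, and Krt10, at 6370 ± 1746 and 24970 ± 1923 CPM (SD, n = 3). Krt14 did not pass the test. The 4 smooth muscle markers summed to 25.0 to 97.8 CPM and 1275 to 1709 CPM, and the 3 Schwann cell markers to 8.36 to 15.9 and 106 to 138 CPM. The 4 leukocyte markers summed to 836 to 1357 CPM and 179 to 278 CPM, but most of the tumor sum was S100a8, at 783 ± 230 and 46.0 ± 15.8 CPM (SD, n = 3), and the other 3, Ptprc, Csf1r and Lyz2, did not pass the test. The sums of the 4 fibroblast markers were 709 to 2148 and 2617 to 2871 CPM, and those of the 3 endothelial markers were 107 to 164 and 158 to 191 CPM. Melanocyte markers stayed at or under 0.779 CPM in every sample, with Tyr at 0 counts.

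Fibroblast growth factors (FGFs) are secreted ligands that bind receptor tyrosine kinases and act through the MAP kinase cascade. Fgf3 and Fgf4 are known as paracrine ligands of the early embryo and its limb and tooth buds, and as genes switched on by insertion of a mammary tumor virus. Fgf15, the mouse counterpart of human FGF19, is an endocrine ligand of the ileum that lowers bile acid synthesis in the liver. Ccnd1 encodes cyclin D1, which with CDK4 or CDK6 phosphorylates the retinoblastoma protein and carries cells into S phase, and it is a textbook target of Wnt/β-catenin signaling, the pathway that Apc restrains. The corresponding region of the human genome is a frequent amplicon of squamous carcinomas. DNA copy number was not analysed here.

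In the order of the chromosome (GRCm38, the mm10 build), Shank2 lies at 143978077 to 144426043 on the plus strand. It is followed on the minus strand by Cttn (144435724 to 144471560), Ppfia1 (144476755 to 144553762), Fadd (144578323 to 144582441) and Ano1 (144588549 to 144752026). The ligand genes follow on the plus strand, Fgf3 at 144838612 to 144843348, Fgf4 at 144861386 to 144865245 and Fgf15 at 144896532 to 144900953. Ccnd1 (144929931 to 144939831) and Tpcn2 (145181633 to 145284011) are again on the minus strand. The whole stretch covers 1.31 Mb, and Fgf3 and Ccnd1 span 101 kb. The gaps between the ligand genes were 18.0 and 31.3 kb, and 29.0 kb separate Fgf15 from Ccnd1.

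RefSeq promoter sequence (GRCm38.p6) was at hand for 6 of the 10 genes, and 3 windows of 250 bases before the start are shown, 5′ to 3′ on the strand of the gene. Fgf4 and Fgf3 are printed as neighbouring ligand genes that were both higher in SA tumors, and Fadd as a neighbour that was lower. Capitals mark matches on either strand to CTTTGA, the core bound by the TCF/LEF partners of β-catenin, to GGGCGG, the GC box, and to TATATA. The motifs were chosen after the sequences had been seen.
Fgf4 (chr7:144861136-144861385, plus strand): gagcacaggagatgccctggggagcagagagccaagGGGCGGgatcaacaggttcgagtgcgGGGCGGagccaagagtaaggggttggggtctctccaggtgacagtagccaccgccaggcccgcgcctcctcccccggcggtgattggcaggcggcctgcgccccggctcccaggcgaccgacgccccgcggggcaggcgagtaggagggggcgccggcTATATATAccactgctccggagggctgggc
Fgf3 (chr7:144838362-144838611, plus strand): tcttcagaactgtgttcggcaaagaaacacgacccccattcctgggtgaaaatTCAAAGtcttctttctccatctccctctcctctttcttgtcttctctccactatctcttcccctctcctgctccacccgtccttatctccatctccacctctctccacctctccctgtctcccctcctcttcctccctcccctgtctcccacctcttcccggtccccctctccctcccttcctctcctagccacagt
Fadd (chr7:144582442-144582691, minus strand): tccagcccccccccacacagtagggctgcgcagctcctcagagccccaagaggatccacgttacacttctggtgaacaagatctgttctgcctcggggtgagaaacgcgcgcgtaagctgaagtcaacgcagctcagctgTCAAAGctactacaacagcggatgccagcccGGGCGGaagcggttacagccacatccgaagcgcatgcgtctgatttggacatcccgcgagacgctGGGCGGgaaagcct

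The Fgf4 window held 2 GC boxes, starting 214 and 188 bases before the start, and overlapping TATATA matches that started 30 and 28 bases before it. Its GC content was 71.2%, against a median of 52.4% over 32851 promoter windows. Of the windows not printed, those of Ano1 and Ppfia1 had 72% and 69.2% GC and 4 GC boxes each. The Ano1 window (144738574 to 144738823) lies inside the gene span given above, so it precedes another start than the end of that span. That of Ppfia1 begins at 144553730 and overlaps the printed gene end at 144553762. The Tpcn2 window had 50.4% GC and none of the motifs. The Fgf3 window had no GC box and 1 TCF/LEF core on the opposite strand, 197 bases before the start. The Fadd window held 1 such core, 110 bases before the start, and GC boxes at 79 and 14 bases. The same letters occurred in 13.8% (CTTTGA), 32.7% (GGGCGG) and 5.25% (TATATA) of all windows. The core was thus found beside 1 gene that was higher and 1 that was lower, and a match describes letters only.

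The 3 ligand genes were nearly silent in WT penises and present in all SA tumors. Fgf4, the most abundant, was counted 2715, 1669 and 8478 times in SA tumors 1 to 3, which is 100.9, 55.2 and 68.8 CPM. WT penises gave 8, 6 and 5 counts, or 0.361, 0.200 and 0.228 CPM. The lowest tumor lay far above the highest normal sample. The means were 75.0 ± 23.4 and 0.263 ± 0.0863 CPM (SD, n = 3), a 285-fold difference with a log2 fold change of 8.17 (standard error 0.343). The 19 WT counts together carry an exact 95% Poisson interval of 0.154 to 0.401 CPM, and the ratio to the tumor mean then lies between 187 and 485. This interval covers counting error of the WT samples only.

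Fgf3 followed the same pattern at a lower level. It had 555, 506 and 1269 counts in SA tumors, or 20.6, 16.7 and 10.3 CPM, and 2, 5 and 0 counts in WT penises, or 0.0904, 0.167 and 0 CPM. The groups did not overlap. The means of 15.9 ± 5.21 and 0.0857 ± 0.0835 CPM (SD, n = 3) differed 185-fold, with a log2 fold change of 7.36 (standard error 0.529). The 7 WT counts allow a ratio between 81.6 and 418. WT penis 2 held 5 of the 7 counts, and without it the log2 fold change was 8.34.

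Fgf15 had no count in any WT penis and 318, 223 and 1237 counts in SA tumors. The tumor levels were 11.8, 7.38 and 10.04 CPM, with a mean of 9.75 ± 2.23 (SD, n = 3). Against 3 counts per WT library, Fgf15 was at least 78.5-fold higher in SA tumors. All WT counts pooled put the upper 95% Poisson limit of its normal level at 0.0498 CPM. Annotated antisense RNAs (Gm26793 and Gm39119) overlap Fgf15 on the other strand. The libraries were stranded, but the strand setting of the counting was not given in the sources used here, so reads of these pairs were not separated here.

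SA tumor 1 had the highest level of all 3 ligands. SA tumor 2 was lowest for Fgf4 and Fgf15, and SA tumor 3 was lowest for Fgf3. SA tumor 1 also had the lowest summed smooth muscle markers among the tumors, at 25.0 CPM against 72.4 and 97.8 CPM, and the lowest fibroblast sum, at 709 CPM against 1655 and 2148 CPM. Their part in the ligand levels was not tested. Per kb of transcript, Fgf4 exceeded Fgf3 1.93-, 1.3- and 2.63-fold in tumors 1 to 3, and Fgf15 5.09-, 4.46- and 4.09-fold. Fgf3 exceeded Fgf15 2.64-, 3.43- and 1.55-fold. The order Fgf4, Fgf3, Fgf15 therefore held in each tumor, with the ratio of Fgf4 to Fgf15 the steadiest of the 3.

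Ccnd1, on the telomeric side of the ligands, was abundant in both groups. It was at 312.5, 269.7 and 279.3 CPM in SA tumors and at 156.0, 207.6 and 267.4 CPM in WT penises. The groups came within 2.32 CPM of each other, because WT penis 3 nearly reached the lowest tumor. The means were 287 ± 22.5 and 210 ± 55.7 CPM (SD, n = 3), 1.37-fold apart, with a log2 fold change of 0.45 (standard error 0.182). Leaving out 1 sample at a time moved this value between 0.26, without WT penis 1, and 0.64, without WT penis 3. Ccnd1 overlaps the end of Oraov1, a gene of ribosome assembly on the opposite strand, which did not pass the test, at 16.0 ± 0.760 and 19.1 ± 2.10 CPM (SD, n = 3; log2 fold change -0.26, adjusted p = 0.119 by edgeR, and 0.03 when scaled by library totals only).

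**Figure D1:**
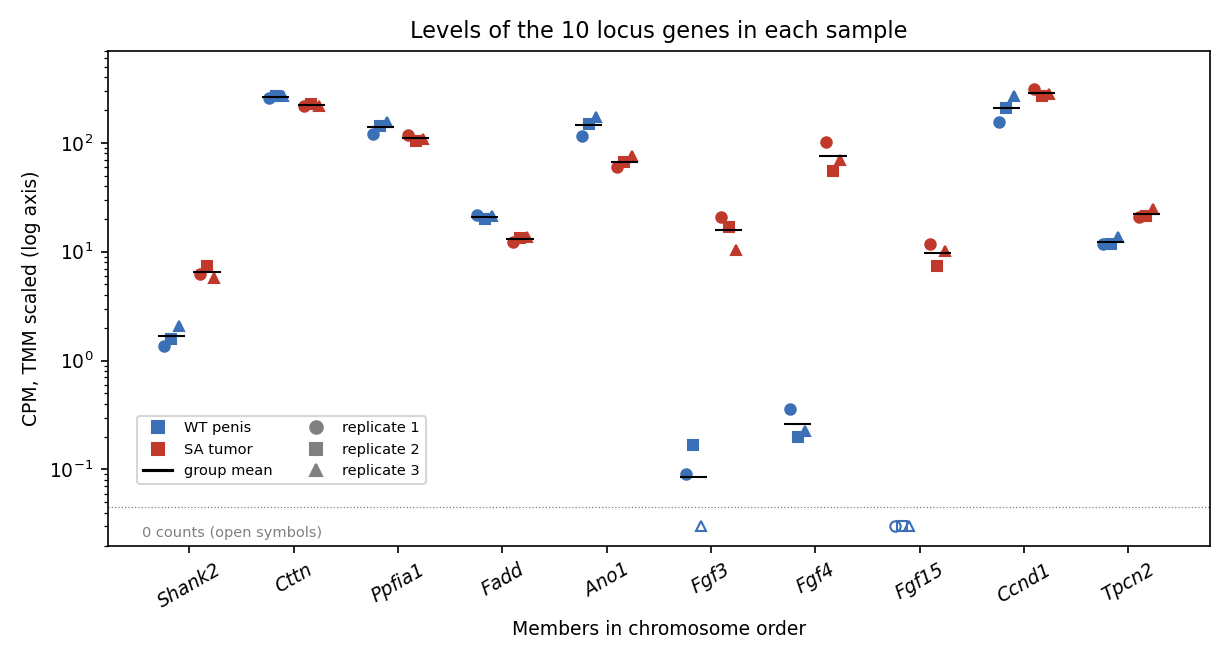
Levels of the 10 locus genes in each of the 6 samples, in CPM after TMM scaling on a log axis, with genes in chromosome order. Points are samples (blue, WT penis, and red, SA tumor), black lines are group means, and open symbols below the dotted line are samples with 0 counts. Fgf3, Fgf4 and Fgf15 sit between 7.38 and 100.9 CPM in SA tumors and at or under 0.361 CPM in WT penises, while Ccnd1 stays between 156.0 and 312.5 CPM in all 6 samples.

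The genes on the centromeric side of the ligands were, apart from Shank2, at lower levels in SA tumors. Ano1, a calcium-activated chloride channel, is the nearest of them to Fgf3. It was at 59.4, 67.2 and 75.1 CPM in SA tumors and 115.3, 149.0 and 170.7 CPM in WT penises. Every tumor was under every normal sample, and the means of 67.2 ± 7.83 and 145 ± 27.9 CPM (SD, n = 3) gave a log2 fold change of -1.11 (standard error 0.157). Ano1 is also expressed by smooth muscle and by interstitial pacemaker cells. The 4 smooth muscle markers were all called lower in SA tumors (log2 fold changes -5.18 to -3.92). Kit and Etv1, listed as pacemaker cell markers, together were at 18.1 to 29.5 CPM in SA tumors and 5.77 to 6.82 CPM in WT penises. Kit and Etv1 alone do not measure the number of such cells. The part of smooth muscle and pacemaker cells in the Ano1 level was not tested.

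Fadd, the adaptor that joins death receptors to caspase-8, was at 12.2, 13.3 and 13.5 CPM in SA tumors and 21.8, 20.02 and 21.1 CPM in WT penises. The samples of each group lay close together and apart from the other group, with a log2 fold change of -0.68 (standard error 0.115). Ppfia1, or liprin-α1, which organizes focal adhesions at the cell edge, was at 118.2, 104.0 and 107.8 CPM in SA tumors and 121.3, 143.0 and 154.8 CPM in WT penises. SA tumor 1 and WT penis 1 were only 3.13 CPM apart. Its log2 fold change was -0.35 (standard error 0.114), and this became -0.06 when scaled by library totals only and 0.02 with the deposited TPM values. Cttn, or cortactin, a binder of branched actin at the cell edge, was at 217.4, 226.3 and 218.6 CPM in SA tumors and 257.5, 266.7 and 269.1 CPM in WT penises. Its groups were tight and separate. On the log2 scale Cttn differed by -0.26 (standard error 0.0853), which turned to 0.02 with library totals only and to 0.11 with TPM. Scaling by library totals moved the median log2 fold change of all genes by 0.29.

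Both outermost genes were higher in SA tumors. Shank2, a scaffold protein of synapses and epithelia, was at 6.24, 7.35 and 5.79 CPM in SA tumors and 1.36, 1.57 and 2.09 CPM in WT penises. All tumors were above all normal samples, with means 3.86-fold apart and a log2 fold change of 1.95 (standard error 0.240). Tpcn2, a cation channel of endosomes and lysosomes, was at 20.6, 21.4 and 24.5 CPM in SA tumors and 11.7, 11.8 and 13.6 CPM in WT penises. It was 1.80-fold higher on the means, with a log2 fold change of 0.85 (standard error 0.13). Shank2 and Tpcn2 lie at opposite ends of the stretch, with the lower genes and the ligands between them.

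A gene is named as called where its adjusted p-value was under 0.01 and its log2 fold change was 2 or more in either direction, which are the thresholds of the study. Fgf15, Fgf4 and Fgf3 were called higher, where 9.41% of the 16336 genes tested were called higher and 3.59% were called lower. At an adjusted p-value under 0.01 and any fold, Shank2 and Tpcn2 were added to the higher genes, and Ano1 and Fadd were lower, with 20.1% of all genes higher and 17.5% lower by this rule. Ccnd1, Ppfia1 and Cttn passed neither rule. The groups did not overlap in 10 of 10 genes, as in 63.4% of all genes. By log2 fold change, Fgf4 ranked 110 and Fgf3 ranked 187 among the 16336 genes, Shank2 1609, Tpcn2 3206 and Ccnd1 4710. These counts restate the contrast by which the genes were chosen, and nothing further is read from them.

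**Figure D2:**
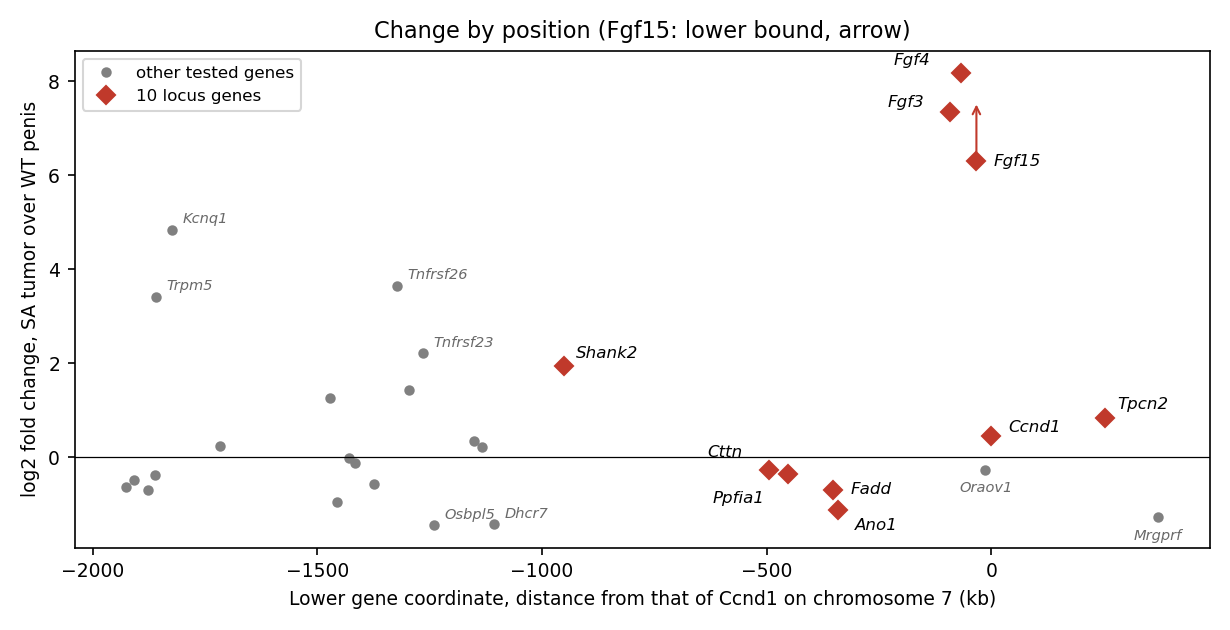
Log2 fold change of SA tumor over WT penis against position on chromosome 7, given as the distance in kb of each gene's lower coordinate from that of Ccnd1. Red diamonds are the 10 locus genes, with Fgf15 drawn at its lower bound of 6.30 and an arrow, and grey points are the 21 other tested genes of the stretch and of 1 Mb on either side. Fgf3, Fgf4 and Fgf15 stand above 6, Ano1 and Fadd lie below 0, and Ppfia1 and Cttn lie just below 0 by this scaling but not with TPM.

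Levels of different genes were compared per kb of transcript. In SA tumors, Ccnd1 was highest, at 75.7 ± 5.92 CPM per kb, above Cttn at 68.5 ± 1.49 (SD, n = 3). Fgf4 came next, at 24.7 ± 7.73, and its samples overlapped those of Ppfia1 at 20.9 ± 1.40. Fgf3, at 13.3 ± 4.36, overlapped Ano1 at 14.6 ± 1.70. Fgf15, at 5.39 ± 1.24, overlapped Fadd at 4.54 ± 0.246, with Tpcn2 above both at 7.62 ± 0.696. Shank2 was lowest, at 1.02 ± 0.126 CPM per kb. In the tumors the ligand genes thus reached the levels of neighbours that are expressed in normal tissue.

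In WT penises, Cttn was highest, at 82.0 ± 1.90 CPM per kb, ahead of Ccnd1 at 55.4 ± 14.7 (SD, n = 3). Ano1, at 31.5 ± 6.07, and Ppfia1, at 26.6 ± 3.23, overlapped between samples, though Ano1 was above Ppfia1 in each of the 3. Fadd was at 7.30 ± 0.309, Tpcn2 at 4.24 ± 0.368 and Shank2 at 0.263 ± 0.0599. Fgf4 (0.0868 ± 0.0285) and Fgf3 (0.0718 ± 0.07) overlapped each other. Fgf15 was at 0 in all 3, as was Fgf3 in WT penis 3. The other neighbours in the order did not overlap. In both groups a few highly expressed genes, Ccnd1 and Cttn, made up most of the per-length output.

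Summed per kb over the 10 genes, the output of the locus was 254.6, 225.1 and 229.1 CPM per kb in SA tumors and 181.1, 208.5 and 232.9 in WT penises. These totals overlapped, since WT penis 3 exceeded SA tumors 2 and 3. The 3 ligands made up 22.4%, 16.1% and 16.1% of the total in the tumors and 0.108%, 0.0987% and 0.0323% in WT penises. The share of Ano1 was 5.07% to 7.12% in SA tumors and 13.8% to 15.9% in WT penises, and that of Cttn 26.5% to 31.2% and 35.9% to 44.1%. The share of Ccnd1 was 31.6% to 32.3% in the tumors and 22.7% to 30.2% in WT penises. Ccnd1 exceeded Fgf4 2.47-, 3.90- and 3.24-fold per kb in the tumors, and 345-, 828- and 937-fold in WT penises.

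**Figure D3:**
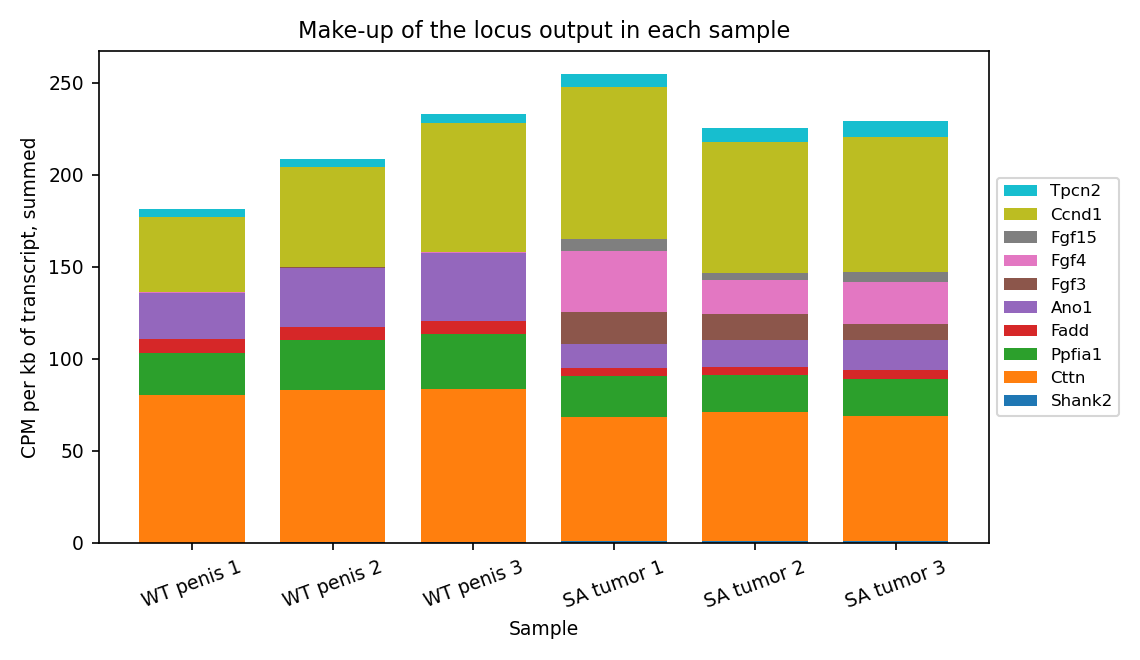
Summed level of the 10 locus genes in each sample, in CPM per kb of transcript, with 1 stacked colour per gene in chromosome order from the bottom. The totals range from 181.1 to 254.6 and overlap between groups, while the 3 FGF genes take 16.1% to 22.4% of the bar in SA tumors and at most 0.108% in WT penises.

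Other genes of the region were taken by position alone, as those in the stretch or within 1 Mb of it. Of 28 such genes, 21 were tested, and 4 of them were called higher in SA tumors, beside 9.41% of all genes. At any fold, 6 were higher and 5 were lower at an adjusted p-value under 0.01 (20.1% and 17.5% of all genes). Their median log2 fold change was -0.13, beside 0.03 over all genes. edgeR and DESeq2 called 0 of them lower at both thresholds, while 8 were lower at an unadjusted p-value under 0.05 in edgeR. In the rest of chromosome 7, 111 of 1221 tested genes were called higher and 47 lower, with a median of -0.04. Within the stretch only Oraov1 was tested, and 1810010D01Rik and Bc1 were too low.

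The 4 called genes all lay beyond Shank2, on the centromeric side of the stretch. Nearly all tested genes outside the stretch lay on that side, so this placement is not read as a result. Kcnq1, a potassium channel of epithelia and heart, rose from 0.541 ± 0.184 to 15.7 ± 6.76 CPM (SD, n = 3; log2 fold change 4.85, standard error 0.416, adjusted p = 3.61e-05 by edgeR). Tnfrsf26 and Tnfrsf23, receptors of the tumor necrosis factor family, rose by log2 fold changes of 3.66 (adjusted p = 0.000556) and 2.23 (adjusted p = 0.000126). Trpm5, a cation channel of taste cells, rose by 3.42 on the log2 scale (adjusted p = 0.00345) but reached only 1.02 ± 0.451 CPM (SD, n = 3). Without WT penis 1, Tnfrsf26 had a value of 4.39, and without WT penis 3, Trpm5 had 4.12. Kcnq1 (8, 16 and 16 counts in WT penises 1 to 3), Tnfrsf26 and Trpm5 passed the filter on low counts only through the tumor samples. Their adjusted p-values and the count of genes called higher carry that limit. Tnfrsf23 lost its call without SA tumor 3, and Trpm5 lost it without SA tumor 2, WT penis 1 or WT penis 2.

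The receptors through which FGFs signal changed in both directions. Of 6 tested FGF receptors and co-receptors, 2 were higher and 3 were lower at an adjusted p-value under 0.01 (20.1% and 17.5% of all genes). Among them, 1 in each direction was called, beside 9.41% of all genes called higher and 3.59% called lower. Fgfr3, a receptor of stratified epithelium, fell from 374 ± 3.72 to 71.2 ± 6.63 CPM (SD, n = 3; log2 fold change -2.39, standard error 0.104, adjusted p = 1.98e-06 by edgeR). Fgfrl1, a family member without a kinase domain, rose from 12.8 ± 2.40 to 152 ± 30.5 CPM (log2 fold change 3.57, standard error 0.199, adjusted p = 4.46e-06). The tumors were at 117.5 to 175.1 CPM of Fgfrl1 and the WT penises at 10.8 to 15.4 CPM. Below the fold threshold, Fgfr1 rose by 1.52 (adjusted p = 8.98e-05) and Fgfr2 fell by 1.22 (adjusted p = 5.18e-05) on the log2 scale. Fgfr4, at or under 0.701 CPM in all samples, fell by 1.69 (adjusted p = 0.00468). Fgfr4 passed the filter on low counts only through the WT samples, which limits its adjusted p-value and the count of lower receptors. Klb, the co-receptor of Fgf15, averaged 0.103 CPM in SA tumors and 0.207 CPM in WT penises, too low to be tested, and Kl did not pass (adjusted p = 0.133). In the keratinocyte marker list, 4 of 5 genes were also lower at an adjusted p-value under 0.01. Whether this reflects the number or the state of keratinocytes, and its part in the receptor levels, was not tested.

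Genes that FGF signaling induces, many of which feed back on it, were mostly higher. Of 9 such genes, all tested, 6 rose at an adjusted p-value under 0.01 (20.1% of all genes) and 3 were called higher (9.41% of all genes). Their median log2 fold change was 1.47 beside 0.03 over all genes. edgeR and DESeq2 found 0 lower at that adjusted p-value, and 0 were lower at an unadjusted p-value under 0.05 in edgeR. Spry4, a Sprouty inhibitor of the cascade, rose from 4.30 ± 1.53 to 35.7 ± 6.15 CPM (SD, n = 3; log2 fold change 3.05, adjusted p = 4.20e-05). The ETS transcription factors Etv4 and Etv5 rose by 2.58 (standard error 0.158, adjusted p = 6.25e-06) and 2.53 (standard error 0.240, adjusted p = 7.95e-05). Dusp6, a phosphatase of ERK, was at 215 ± 48.2 and 77.7 ± 12.9 CPM (log2 fold change 1.47, adjusted p = 0.000247). Spry2 also rose, by 0.50 (adjusted p = 0.00410). The Spred genes did not pass, with log2 fold changes of 0.39 for Spred1 (adjusted p = 0.0731) and -0.10 for Spred2 (adjusted p = 0.697). These genes respond to other receptor tyrosine kinases as well.

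Of 19 other FGF ligand genes, 14 were tested, 4 were called higher and 2 were called lower, beside 9.41% and 3.59% of all genes. Their median log2 fold change was -0.33. Fgf20 rose from 0.0563 ± 0.0706 to 35.1 ± 11.03 CPM (SD, n = 3; log2 fold change 9.26, adjusted p = 3.61e-06), a pooled ratio of 649 with a 95% counting interval of 254 to 2380. Fgf5, a regulator of hair growth, had 1 WT count in all and 2.93 ± 0.849 CPM in SA tumors, a ratio of 217 with an interval of 38.9 to 8560 (adjusted p = 4.84e-05). Fgf8, which had 3 WT counts in all, reached 1.73 ± 0.155 CPM, a ratio of 42.7 with an interval of 14.6 to 207 (adjusted p = 2.40e-05). Like the locus ligands, Fgf20, Fgf5 and Fgf8 passed the filter on low counts only through the tumor samples. Their adjusted p-values and the count of ligands called higher carry that limit. Fgf9 rose from 0.958 ± 0.188 to 7.44 ± 1.16 CPM (log2 fold change 2.96, adjusted p = 3.12e-05). Without WT penis 1, the log2 fold changes of Fgf20 and Fgf5 were 10.63 and 10.08 in place of 9.26 and 7.46, and without WT penis 2, Fgf5 had 6.82.

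The 2 called ligands that fell were Fgf10, made by mesenchyme, and Fgf12, which stays inside the cell. Fgf10 went from 19.5 ± 1.40 to 3.97 ± 1.85 CPM (SD, n = 3; log2 fold change -2.26, standard error 0.318, adjusted p = 0.00053), and lost its call with library totals only and without SA tumor 1. Fgf12 went from 3.02 ± 0.465 to 0.455 ± 0.264 CPM (log2 fold change -2.60, standard error 0.418, adjusted p = 0.00100). Fgf12 passed the filter on low counts only through the WT samples. Its adjusted p-value and the count of ligands called lower carry that limit. Below the fold threshold Fgf1 (-1.57, adjusted p = 5.88e-05) and Fgf11 (-0.71, adjusted p = 0.00675) also fell. Fgf7, another mesenchymal ligand, was at 3.79, 11.1 and 15.6 CPM in SA tumors, lowest in SA tumor 1 as the fibroblast markers were, and did not pass (-0.57, adjusted p = 0.312). The part of the fibroblast share in Fgf10 and Fgf7 was not tested. Fgf22 did not pass either (-0.41, adjusted p = 0.248).

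**Figure D4:**
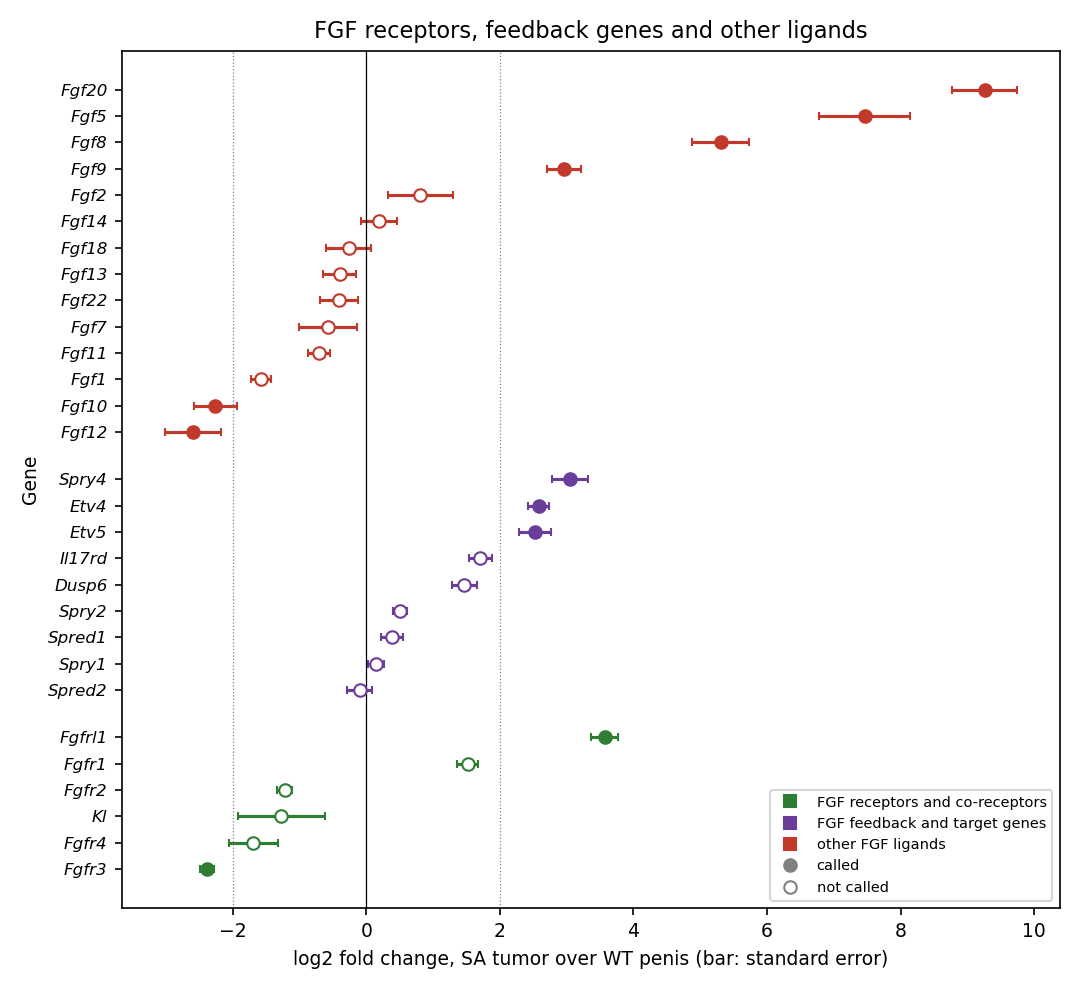
Log2 fold change of SA tumor over WT penis for tested FGF receptors (green), feedback and target genes (purple) and other FGF ligands (red), with bars for the standard error. Filled points are called genes, whose fold passes the dotted lines at -2 or 2 with an adjusted p-value under 0.01, led by Fgf20 at 9.26, and open points are not called.

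Around cyclin D1, the inhibitors and partners moved unevenly. Of 16 tested genes, 5 were higher and 3 were lower at an adjusted p-value under 0.01 (20.1% and 17.5% of all genes). Called higher were 2 of them, beside 9.41% of all genes, and their median log2 fold change was -0.01. edgeR and DESeq2 called 0 lower at both thresholds, with 5 lower at an unadjusted p-value under 0.05 in edgeR. Cdkn2a, which encodes the CDK4 and CDK6 inhibitor p16INK4a and p19ARF, was at 21.1, 20.5 and 23.4 CPM in SA tumors and 0.181, 0.1001 and 0 CPM in WT penises. Cdkn2a rose by 7.80 on the log2 scale (standard error 0.387, adjusted p = 2.78e-06), or by 8.49 without WT penis 1. It passed the filter on low counts only through the tumor samples. Ccne1, cyclin E1, rose from 3.76 ± 0.858 to 24.6 ± 7.27 CPM (SD, n = 3; log2 fold change 2.70, adjusted p = 7.51e-05).

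Among the D cyclins, Ccnd2 was at 333 ± 21.7 CPM in SA tumors and 1038 ± 163 CPM in WT penises (SD, n = 3; log2 fold change -1.64, standard error 0.137, adjusted p = 3.07e-05). Ccnd2 fell, whereas Ccnd3 (55.7 and 58.4 CPM) did not pass, with a log2 fold change of -0.07 (adjusted p = 0.694). Cdk4, the partner kinase, had a log2 fold change of 0.44 that missed the threshold (adjusted p = 0.0111). Cdkn1a, or p21, was at 381 ± 85.5 and 411 ± 19.2 CPM and did not pass (-0.11, adjusted p = 0.579).

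Relatives and partners of the remaining neighbours were listed by family. Of 21 tested, 5 were higher and 6 lower at an adjusted p-value under 0.01 (20.1% and 17.5% of all genes). Called higher were 3 and lower 2, beside 9.41% and 3.59% of all genes, and the median log2 fold change of the 21 was -0.04. In the anoctamin family of Ano1, Ano7 rose (3.10, adjusted p = 0.000108) and Ano9 fell (-2.29, adjusted p = 1.33e-05), with Ano9 at 36.3 ± 7.59 and 178 ± 17.8 CPM (SD, n = 3). Ano3 was called higher at 1.21 CPM (3.00, adjusted p = 0.00340), had a value of 4.33 without WT penis 3, and lost its call without WT penis 1 or WT penis 2. It passed the filter on low counts only through the tumor samples. Ano6, a lipid scramblase, fell by 0.54 (adjusted p = 0.00537).

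Of the liprin relatives of Ppfia1, Ppfia4 rose (2.40, adjusted p = 0.000110) and Ppfia3 fell below the fold threshold (-1.34, adjusted p = 1.17e-05). Ppfia2 averaged 0.189 CPM in SA tumors and 1.05 CPM in WT penises (-2.13, adjusted p = 0.00955, and -3.50 without SA tumor 3). It lost its call with library totals only, with the replicate block, and without SA tumor 1, SA tumor 2 or any 1 WT penis. Ppfia2 passed the filter on low counts only through the WT samples. Its adjusted p-value and the count of relatives called lower carry that limit. Tpcn1, the relative of Tpcn2, went from 180 ± 7.33 to 125 ± 3.39 CPM (SD, n = 3; -0.53, adjusted p = 0.00105), in the direction opposite to the 22.2 ± 2.03 and 12.3 ± 1.07 CPM of Tpcn2. Cflar, an inhibitor at the complex that Fadd builds, did not pass (0.27, adjusted p = 0.0807).

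The genes with the profiles most like each of 4 locus genes were found by the root mean square difference of gene-centred log2 CPM over the 6 samples. This is a description, since any pair of genes that is low in WT penises and high in SA tumors is close by it. For Fgf4 they were 4921525O09Rik (0.206), Shh (0.223) and Fgf15 (0.267). Shh, the hedgehog ligand, was at 99.7 ± 14.5 CPM in SA tumors and 0.327 ± 0.0314 CPM in WT penises (SD, n = 3). For Fgf15 they were Igfn1 (0.135), Spo11 (0.203) and Car3 (0.235), and for Fgf3 they were Naip1 (0.269), Hrh3 (0.347) and Stac (0.347). Fgf3 differed from Fgf4 by 0.841 and from Fgf15 by 0.783, and neither was among its 3 nearest profiles. The log2 CPM values carry a prior count of 2, so for genes with few or no WT counts they depend on it. At that prior the log2 fold changes were 7.70 for Fgf15, 7.94 for Fgf4 and 6.83 for Fgf3. Nothing further is read from the distances among the ligands. For Ccnd1 they were Abl2 (0.0510), 2210408I21Rik (0.0544) and 9630033F20Rik (0.0719), and Ccnd1 differed from the 3 ligand genes by 3.42 to 3.74.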

How the data were processed

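RNA-seq of 3 SA tumors and 3 WT penises was analysed. The labels number the replicates and do not name the mice. The study states 3 SA mice. For the WT group it gives n = 3, with n defined as biological samples, and no separate count of mice. Alignment by the authors was to mm10 with TopHat. They checked reads with FastQC, counted them with HTSeq and used DESeq2 (versions and strand setting not given in the sources used here). The deposited values are raw counts for 33068 RefSeq transcript rows, with FPKM and TPM values that the authors derived from those counts. Of 24063 symbols, 4914 had more than 1 row, and the row with the highest mean count stood for its gene. Transcript lengths were recovered from the deposited counts and FPKM. TPM served only as an alternative scale.

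Counts were analysed with edgeR 4.0.16 in R 4.3.3. Genes passing filterByExpr (minimum count 10, minimum total 15), 16336 in number, were scaled by TMM and compared by the robust quasi-likelihood F-test, and p-values were adjusted by Benjamini-Hochberg over all of them. A called gene passed an adjusted p-value of 0.01 and had a log2 fold change of 2 or more in either direction. An exact permutation test of 3 against 3 samples cannot go below p = 0.1. The steps were tested on simulated data.

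The locus genes and the gene lists were chosen with earlier results of these data known. Named were the locus genes, called genes of each list (at most 8), up to 4 others of a list by level, tested genes in the stretch, the 3 nearest profiles of Fgf15, Fgf4, Fgf3 and Ccnd1, and the deleted genes. Klb, as the co-receptor of Fgf15, was named outside this rule, after its values were seen. Of the 10 locus genes 6 had a RefSeq promoter entry. Positions came from RefSeq (GRCm38.p6) and strands from GENCODE. Of the 24063 symbols, 23765 were placed by transcript, 197 by symbol and 48 by synonym, and 53 were not placed. Alternatives were DESeq2 1.42.0, RLE scaling, library totals only, no filter, a mean of at least 50 counts, summed transcript rows, a prior count of 2, TPM, a replicate block and each sample left out.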

Additional observations from a re-analysis of the deposited data

How the results depend on the processing

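The log2 fold changes of Ccnd1, Fgf15, Fgf4, Fgf3, Ano1, Fadd, Shank2 and Tpcn2 kept their sign under every alternative that was run, from 0.26 to 0.81 for Ccnd1, 7.89 to 8.55 for Fgf4, 6.83 to 8.34 for Fgf3, -1.26 to -0.75 for Ano1, -0.74 to -0.31 for Fadd, 1.81 to 2.30 for Shank2 and 0.77 to 1.21 for Tpcn2. Ppfia1 (-0.45 to 0.02) and Cttn (-0.29 to 0.11) did not. The fitted size for Fgf15 depends on the prior count and is not a bound. For the other FGF ligands, 2 genes were called lower, against 1 with library totals only and 1 to 2 when 1 sample was left out. For the relatives and partners of the neighbours, 2 were called lower, against 1 with library totals only, 1 with the filter at a mean of 50 counts, 1 with the replicate block and 1 to 3 when 1 sample was left out. The 3 were found without SA tumor 3, when Ano2 was added to Ano9 and Ppfia2, and each of the other 5 samples left out gave 1. The filter removed the lowly counted gene, and otherwise the cause was not tested. The residuals of same-numbered samples correlated at -0.135, -0.105 and 0.0238, so the numbers were not treated as pairs, and the replicate block changed no other count of called genes by over 1.5 times. Low WT counts limit the ligand folds, and 3 samples per group limit all spreads.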
